A study of Mus musculus with 8 samples.

Results

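Metallothioneins and genes of the oxidative stress response were described in stromal cells sorted from indomethacin-injured mouse small intestine. The 10 genes were matched by gene symbol among the 53801 genes listed: the metallothioneins Mt1 and Mt2, the haem oxygenase Hmox1, and Nqo1, Gclc, Gclm, Txnrd1, Srxn1, Slc7a11 and Osgin1. All 10 passed the filter on low counts, as did 15945 genes in all. Mt1, Mt2 and Hmox1 were chosen by their measured levels, which differed widely between replicate numbers, so those differences are given as values with no test. The other 7 were taken for their known role and not for such differences, although earlier results of these data were known.

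The study compared 4 libraries of YFP-positive cells with 4 libraries of YFP-negative cells, numbered 1 to 4 in each. All 8 came from LTβR-YFP reporter mice given indomethacin, a cyclooxygenase inhibitor that ulcerates the small intestine. In both groups the sort kept cells without CD45, a leukocyte surface protein, and without CD31, an endothelial one. There was no group without indomethacin. The sources used here do not say how YFP is driven, how old the mice were or how many mice stand behind a library. P-values therefore measure the spread between these libraries, which may be technical in part.

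Metallothioneins are small cysteine-rich proteins that bind zinc and copper, and their genes are switched on by metals, glucocorticoids and inflammatory signals through the zinc-sensing factor MTF1, the glucocorticoid receptor and STAT3. The factor NRF2, held down by KEAP1 until reactive molecules modify it, drives genes for glutathione synthesis, the thioredoxin system and haem breakdown through antioxidant response elements. Hmox1 is also held down by the haem-binding repressor BACH1. In the inflamed gut, both programmes are known as protection against metals and oxidants.

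Mt1 (ENSMUSG00000031765, GRCm38 chromosome 8, 94179082 to 94180327, plus strand) and Mt2 (ENSMUSG00000031762, 94172664 to 94173568, plus strand) lie 5513 bases apart. Their promoters, and that of Srxn1 for comparison, are shown as a description. They were picked with the levels known: Mt1 and Mt2 moved together across the libraries and Srxn1 did not follow them. Any link between promoter letters and levels was not tested. Each line gives the 250 bases before the RefSeq start (GRCm38.p6), 5′ to 3′ on the plus strand. Capitals mark the metal response element core in Mt1 and Mt2 and the loose antioxidant response element core in Srxn1, on either strand.
Mt1, chr8:94178839-94179088: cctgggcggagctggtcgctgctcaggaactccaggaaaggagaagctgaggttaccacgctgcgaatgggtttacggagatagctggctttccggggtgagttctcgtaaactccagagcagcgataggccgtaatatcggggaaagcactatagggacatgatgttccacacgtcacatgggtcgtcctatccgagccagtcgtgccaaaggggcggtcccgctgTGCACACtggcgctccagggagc
Mt2, chr8:94172368-94172617: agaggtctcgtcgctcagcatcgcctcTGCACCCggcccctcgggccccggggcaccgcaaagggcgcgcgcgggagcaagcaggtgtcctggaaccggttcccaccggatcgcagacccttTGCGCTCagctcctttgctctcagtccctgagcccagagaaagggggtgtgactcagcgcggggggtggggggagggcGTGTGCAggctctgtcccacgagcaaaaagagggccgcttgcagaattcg
Srxn1, chr2:152105274-152105523: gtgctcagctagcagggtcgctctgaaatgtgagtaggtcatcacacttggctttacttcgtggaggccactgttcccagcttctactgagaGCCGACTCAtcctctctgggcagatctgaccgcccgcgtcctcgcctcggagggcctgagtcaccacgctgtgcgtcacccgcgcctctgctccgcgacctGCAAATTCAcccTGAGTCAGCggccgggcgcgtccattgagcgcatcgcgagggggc

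The metal response element core was searched as TGCACNC or TGCGCNC on both strands, from 250 bases before to 50 after each start. Mt2 held 4 matches and Mt1 held 3, of which 3 and 1 lie in the stretches printed. Gclm, whose promoter is not printed, also held 3. Of 32851 RefSeq windows of the same 300 bases, 0.517% held at least 4 matches and 1.97% at least 3. The antioxidant response element core was searched as TGACNNNGC, and in the looser form TGANNNNGC, which includes the first. Mt2, Gclm, Srxn1 and the Txnrd1 window at 82858956 on chromosome 10 held 1 strict match each, against 12.4% of all windows with at least 1. Srxn1 held 4 loose matches, a number that 0.301% of windows reached, and 3 of these are printed. Srxn1 also held 1 metal response element match within the printed stretch, not in capitals, where 25.7% of windows held at least 1. Slc7a11 held 3 loose antioxidant matches, a number reached by 1.88% of windows. In Gclm a metal response element match overlapped the antioxidant match. Promoter sequences were found for 8 of the 10 genes; Hmox1 and Gclc had none in the table used. A match of these letters is a description and shows no binding.

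**Figure D1:**
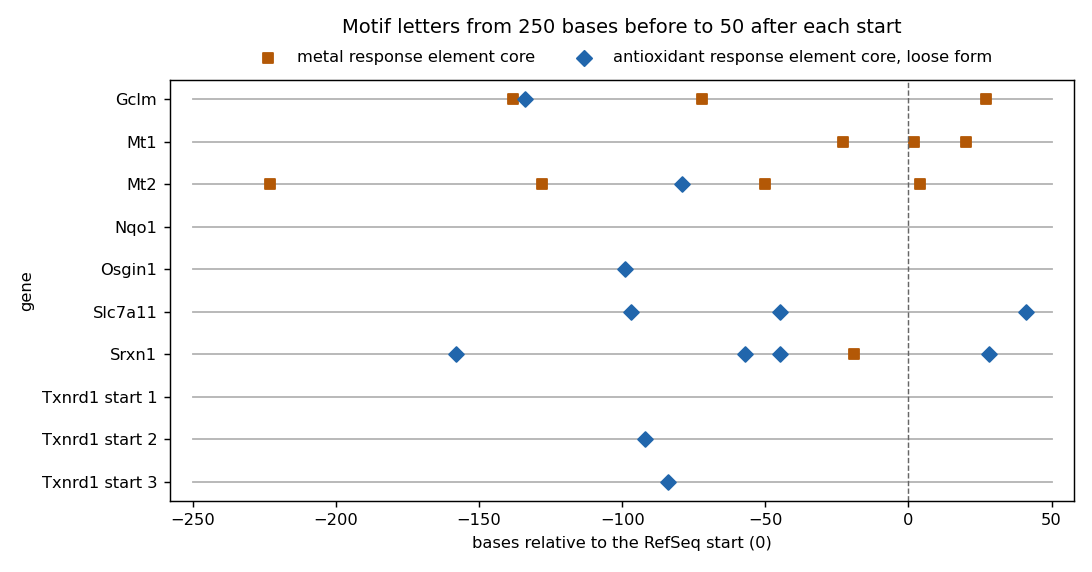
Positions of motif letters in the promoter windows of 8 genes, in bases relative to the RefSeq start at 0, with 3 annotated starts for Txnrd1. Squares are metal response element cores, 4 in Mt2, 3 in Mt1 and 3 in Gclm; diamonds are loose antioxidant response element cores, 4 in Srxn1 and 3 in Slc7a11. Srxn1 also has 1 metal response element core.

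Total counts ranged from 14564835 to 29385718 in YFP-positive and from 12481608 to 28931436 in YFP-negative libraries. Libraries of equal number resembled each other: deviations from the group means correlated at 0.233 to 0.487 within numbers and at most at 0.0456 between them. The libraries of number 2 stood apart on the first principal component, at 78.7 (YFP-positive) and 92.5 (YFP-negative) against -46.2 to -12.4 for the others. Levels are CPM, counts scaled to a common library size with TMM factors, and a gene at 1 CPM held 11.7 to 29.65 counts. Fibroblast markers, 6 of 6 detected in every library, summed to 21290 to 34630 CPM in YFP-positive and 25880 to 51770 CPM in YFP-negative libraries. Ptprc, which encodes CD45, was at 2.08 to 12.2 CPM and 0.877 to 4.68 CPM, and Pecam1, which encodes CD31, at 11.1 to 45.8 CPM and 11.3 to 46.9 CPM.

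Mt1 was at 401, 1623, 677 and 209.6 CPM in YFP-positive replicates 1 to 4, against 429, 1948, 739 and 267 CPM in YFP-negative replicates 1 to 4. Mt2 was at 265, 1345, 597 and 122 CPM in YFP-positive replicates 1 to 4, against 277, 1670, 594.5 and 171 CPM in YFP-negative ones. Both genes were highest in the libraries of number 2 and lowest in those of number 4, in either group, and the groups overlapped. In the order 2, 3, 1, 4 the libraries of each number lay above those of the next for both genes. The mean of both libraries of number 2 was 7.49 times that of number 4 for Mt1 and 10.3 times for Mt2. The ratio of Mt1 to Mt2 counts was 1.51, 1.21, 1.13 and 1.72 in YFP-positive replicates 1 to 4, against 1.55, 1.17, 1.24 and 1.56 in YFP-negative ones. It was lower in the libraries of numbers 2 and 3, where both genes were high, than in those of numbers 1 and 4. Mt2 shares 432 exon bases with Gm45774 on the opposite strand, a gene with 1807 counts over all libraries, and the sources used here do not give the strand setting with which reads were counted. Mt1 and Mt2 transcripts share no exact run of 50 bases with each other or with another annotated gene.

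Hmox1 (ENSMUSG00000005413, chromosome 8, 75093621 to 75100589, plus strand) encodes the inducible enzyme that splits haem into biliverdin, iron and carbon monoxide. It was at 84.1, 279, 48.6 and 34.04 CPM in YFP-positive replicates 1 to 4, against 82.6, 332, 62.0 and 43.2 CPM in YFP-negative replicates 1 to 4. Number 2 was again the highest and number 4 the lowest, 7.92 times apart, but number 1 stood above number 3, the reverse of the metallothioneins. In a bulk library, more cells with a transcript and more transcript per cell cannot be told apart.

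**Figure D2:**
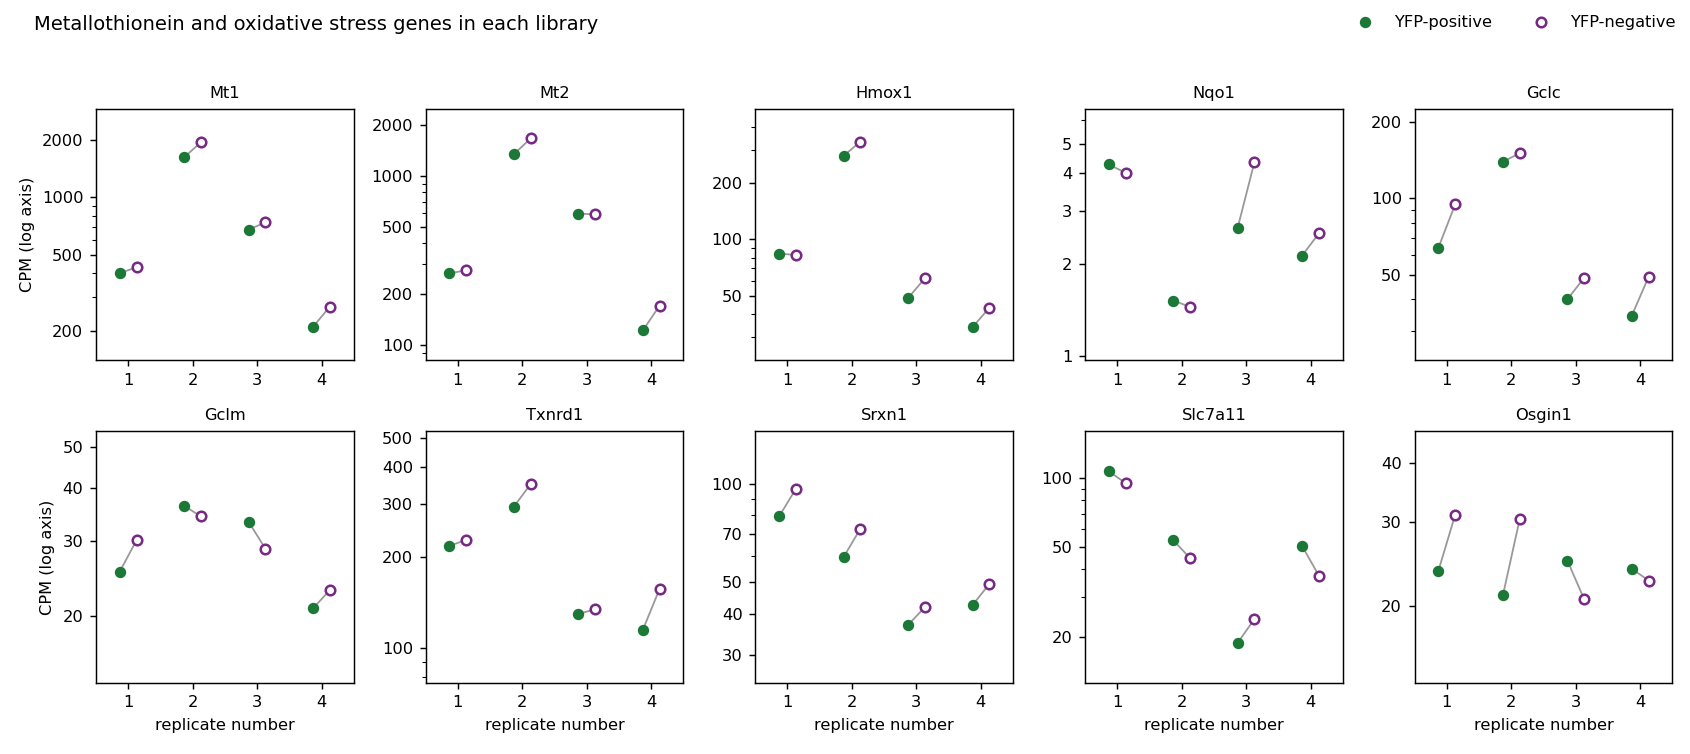
CPM of the 10 genes on log axes, by replicate number, with filled points for YFP-positive and open points for YFP-negative libraries and a grey line joining libraries of equal number. Mt1, Mt2, Hmox1, Gclc and Txnrd1 peak at number 2 in both groups, and Slc7a11 and Srxn1 at number 1.

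The libraries of number 2 differed in other ways too. Summed macrophage and monocyte markers, 8 of 10 detected in every library, stood at 59.6 CPM (YFP-positive) and 49.6 CPM (YFP-negative) in number 2, against 18.0 to 33.6 CPM in the other libraries. Of this list only Cd68, Csf1r, Cd163 and Mrc1 were highest in number 2 in both groups. Ptprc was at 2.3 CPM in YFP-negative replicate 2 against 4.68 CPM in YFP-negative replicate 1, and Lyz2 at 3.75 CPM against 5.79 CPM. Cd163, a macrophage receptor for haemoglobin, was at most at 2.05 CPM in any library, and Itgam was at 0 in 5 of 8. Summed fibroblast markers were lowest in number 2, at 21290 and 25880 CPM against 28620 to 51770 CPM elsewhere. Within that list Col1a1, Col1a2, Col3a1 and Pdgfra were lowest in number 2 in both groups, but Dcn was highest there, at 5606 CPM (YFP-positive) and 7349 CPM (YFP-negative), and Lum was lowest in number 3. Red blood cell markers summed to 0.345 and 2.56 CPM in number 2 and 0 to 4.83 CPM in the others. The part of cell makeup or of depth, lowest in number 2, in the metallothionein and Hmox1 levels was not tested.

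**Figure D3:**
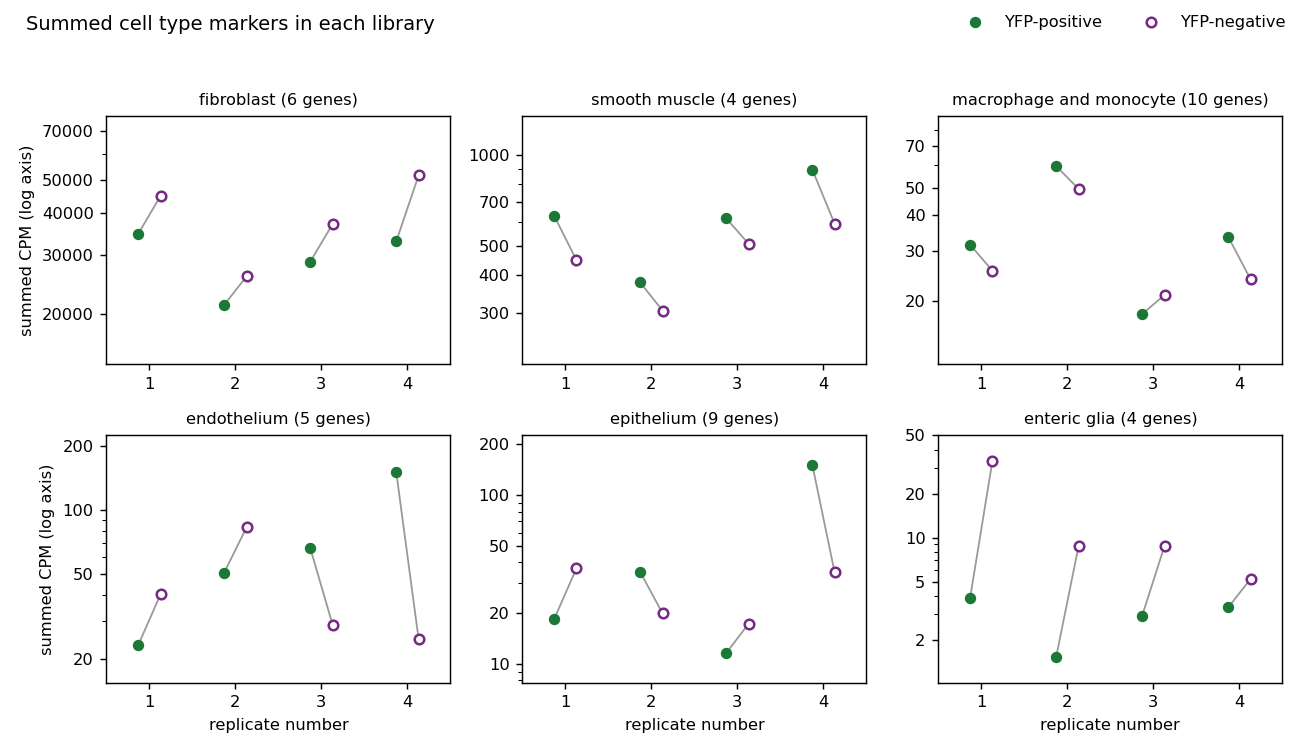
Summed CPM of 6 marker lists on log axes, by replicate number, filled for YFP-positive and open for YFP-negative libraries. The sum of macrophage and monocyte markers is highest at number 2, although only Cd68, Csf1r, Cd163 and Mrc1 of that list peak there in both groups. The sum of fibroblast markers is lowest at number 2, although Dcn, a member of the list, is highest there. Summed enteric glia markers are lower and summed smooth muscle markers higher in YFP-positive cells in 4 of 4 pairs, although Actg2 of the smooth muscle list is lower in pair 3.

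The 3 genes of glutathione synthesis followed different orders. Slc7a11, the cystine importer that feeds glutathione synthesis, was at 107.5, 53.5, 19.0 and 50.4 CPM in YFP-positive replicates 1 to 4, against 95.3, 44.6, 24.1 and 37.3 CPM in YFP-negative ones. Gclc, the catalytic subunit of glutamate-cysteine ligase, the rate-limiting enzyme, was at 63.9, 139, 40.0 and 34.5 CPM in YFP-positive replicates 1 to 4, against 94.6, 150.5, 48.6 and 49.0 CPM in YFP-negative ones. Slc7a11 was highest in number 1 and lowest in number 3, whereas Gclc was highest in number 2. Gclm, the ligase's modifier subunit, was at 25.45, 36.4, 33.3 and 20.9 CPM in YFP-positive replicates 1 to 4, against 30.2, 34.3, 28.8 and 23.0 CPM in YFP-negative ones. The range of Gclm was narrow, 1.61 times between the means of numbers 2 and 4, against 3.47 times for Gclc and 4.71 times for Slc7a11. Gclm counts are uncertain, because its exons hold 244 bases of the annotated gene Gm6061, share 50-base runs with the abundant gene Ppia and its copies, and overlap Gm17494 on the opposite strand by 296 bases.

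Txnrd1, the cytosolic thioredoxin reductase, was at 218, 295, 129.6 and 115 CPM in YFP-positive replicates 1 to 4, against 228, 350, 134 and 157 CPM in YFP-negative ones. Srxn1, sulfiredoxin, which restores over-oxidised peroxiredoxins, was at 79.5, 59.7, 37.0 and 42.6 CPM in YFP-positive replicates 1 to 4, against 96.4, 72.8, 42.0 and 49.4 CPM in YFP-negative ones. Txnrd1 was highest in number 2 and Srxn1 in number 1, and for either gene the libraries of numbers 3 and 4 were the lowest. Nqo1, a quinone reductase often used as an NRF2 marker, was low, at 4.27, 1.52, 2.64 and 2.14 CPM in YFP-positive replicates 1 to 4, against 4.01, 1.45, 4.35 and 2.53 CPM in YFP-negative ones. It rested on 17 to 129 counts per library and was lowest in number 2, where Mt1, Mt2 and Hmox1 were highest. Osgin1, an oxidative stress-induced growth inhibitor, was nearly level, at 23.7, 21.1, 24.9 and 23.95 CPM in YFP-positive replicates 1 to 4, against 31.1, 30.4, 20.7 and 22.6 CPM in YFP-negative ones.

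Per kilobase of annotated exon, the 10 genes spanned a wide range of levels. Mt2 averaged 990 ± 928 CPM per kilobase in YFP-positive and 1153 ± 1165 CPM per kilobase in YFP-negative cells (SD, n = 4 each), and Mt1 584 ± 503 and 679 ± 610. The annotated exons of Mt1 cover its whole gene, so its level per length is low relative to the spliced transcript. Hmox1 followed at 63.6 ± 64.8 and 74.2 ± 77.6 CPM per kilobase, then Txnrd1, Srxn1 and Gclc at 26.7, 19.4 and 18.4 in YFP-positive and 30.7, 23.1 and 22.7 in YFP-negative cells. Osgin1 was at 8.76 ± 0.618 and 9.80 ± 1.99 CPM per kilobase. Gclm, Slc7a11 and Nqo1 were the lowest, at 4.61, 4.14 and 1.701 in YFP-positive and 4.62, 3.62 and 1.99 in YFP-negative cells. In both groups Mt2 and Mt1, each neighbouring pair from Hmox1 to Gclc, Gclm and Slc7a11, and Slc7a11 and Nqo1 differed by less than the larger of their SDs.

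The first comparison asked how cells sorted as YFP-positive differed from cells sorted as YFP-negative. In edgeR only Gclc of the 10 fell in YFP-positive cells, and only when the replicate number was a block in the fit. It averaged 69.4 ± 48.3 CPM in YFP-positive and 85.65 ± 48.3 CPM in YFP-negative cells (SD, n = 4 each) and was lower in YFP-positive cells in 4 of 4 pairs. With the block its log2 fold change was -0.36 ± 0.0892 (SE; 95% confidence interval -0.55 to -0.18, a 0.681-fold to 0.886-fold level; adjusted p = 0.0440, edgeR). The call was lost without number 1, 3 or 4 and with library sizes alone (adjusted p = 0.227, 0.128, 0.207 and 0.156, edgeR). Without the block Gclc was at -0.30 on the log2 scale (adjusted p = 0.99985, edgeR). Without the block, in edgeR, 0 of the 10 genes and 0 of all 15945 genes (0%) passed, and 0 of the 10 had an unadjusted p of 0.05 or below, against 2.04% of all genes. DESeq2 called 2 genes and limma voom 0 without the block, with none of the 10 among them. No gene of the 10 had groups that did not overlap, against 1.55% of all genes.

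Without the block 9 of 10 log2 fold changes were below 0, although Gclm turned above 0 with library sizes alone, and Mt2 and Gclm turned above 0 and Slc7a11 below 0 with limma voom. The median over the 10 genes was -0.22, against 0.0045 over all genes tested. The intervals were wide: Mt1 averaged 728 ± 627 CPM in YFP-positive and 846 ± 760 CPM in YFP-negative cells, and its 95% interval ran from a 0.305-fold to a 2.43-fold level. That of Mt2 (582 ± 546 and 678 ± 685 CPM) ran from 0.261-fold to 2.83-fold. That of Hmox1 (111 ± 113.5 and 130 ± 136 CPM) ran from 0.274-fold to 2.68-fold. In this fit, which does not pair libraries of equal number, the direction of Mt1, Mt2 and Hmox1 rested on single libraries. Without YFP-negative replicate 2 their log2 fold changes were 0.60, 0.74 and 0.82, and without YFP-positive replicate 4 they were 0.09, 0.12 and 0.08. Mt2 also turned without YFP-positive replicate 1 (0.02) and Hmox1 without YFP-positive replicate 3 (0.02). With the block, all 3 genes were below 0 in all 11 fits. Their log2 fold changes then ran from -0.24 to -0.12 for Mt1, -0.29 to -0.12 for Mt2 and -0.31 to -0.14 for Hmox1.

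With the block, 1 of 10 genes was called lower and 0 higher, against 1.59% and 0.696% of all genes. Of the 10, 6 had an unadjusted p of 0.05 or below and a lower level, against 6.42% of all genes: Mt1, Mt2, Hmox1, Gclc, Txnrd1 and Srxn1. With library sizes alone that count was 1, against 3.59% of all genes. The median was then -0.12 over the 10 genes and 0.0915 over all genes, against -0.21 and 0.0048 with TMM factors. In 4 of 4 pairs YFP-positive cells had less Mt1, Gclc, Txnrd1 and Srxn1, a pattern shared by 10.2% of all genes. The blocked interval of Mt1 ran from a 0.788-fold to a 0.950-fold level (adjusted p = 0.131, edgeR). Mt1 passed with the block in DESeq2 and in limma voom (adjusted p = 0.0282 and 0.0245). In the authors' deposited table Mt1 and Gclc were lower with an adjusted p of 0.0245 and 0.0236, where 2.07% of 16502 genes were lower and passed, and 3.01% passed in either direction. The blocked levels of Mt2, Hmox1, Txnrd1 and Srxn1 were 0.863-fold, 0.854-fold, 0.869-fold and 0.847-fold (adjusted p = 0.240, 0.213, 0.255 and 0.213, edgeR). Slc7a11 was at 1.10-fold, Osgin1 at 0.909-fold, Nqo1 at 0.864-fold and Gclm at 0.985-fold with the block (adjusted p = 0.773 to 0.982, edgeR), with intervals from 0.929 to 1.30, 0.727 to 1.14, 0.478 to 1.56 and 0.820 to 1.18.

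**Figure D4:**
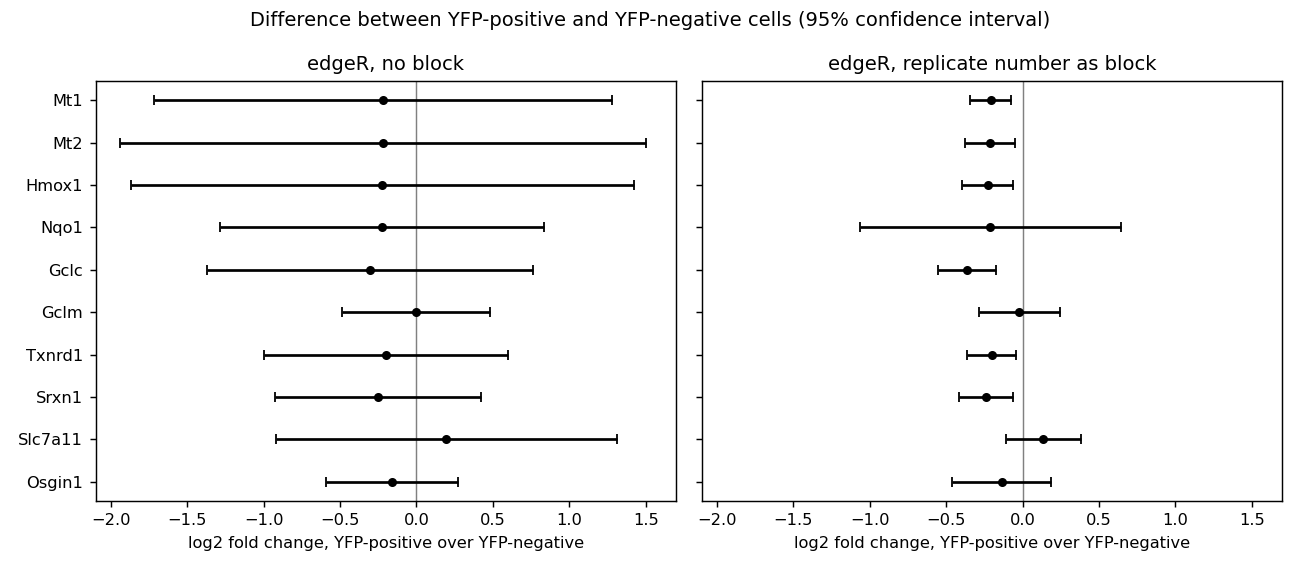
Log2 fold change of YFP-positive over YFP-negative cells for the 10 genes, fitted by edgeR without the replicate number and with it as a block ( points are estimates, bars 95% confidence intervals, 4 libraries a group). Without the block every interval spans 0; with it the estimates hardly move and the intervals of 6 genes lie below 0.

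Other markers moved with the groups. Enteric glia markers summed to 1.52 to 3.86 CPM in YFP-positive and 5.21 to 33.6 CPM in YFP-negative libraries, with S100b at 0 in all 4 YFP-positive ones. Summed fibroblast markers were lower and summed smooth muscle markers higher in YFP-positive cells in 4 of 4 pairs, and smooth muscle markers summed to 379 to 894 CPM in YFP-positive and 306 to 592 CPM in YFP-negative libraries. Not all members went with these sums. Pdgfra of the fibroblast list was nearly level, at 1310 to 2025 CPM in YFP-positive and 1363 to 1967 CPM in YFP-negative libraries, and higher in YFP-positive cells in pairs 3 and 4. Actg2 of the smooth muscle list was lower in YFP-positive cells in pair 3, at 26.9 against 29.3 CPM. The other members of both lists went with their sum in 4 of 4 pairs. Neutrophil markers summed to 2.69 to 8.24 CPM in YFP-positive and 1.19 to 4.32 CPM in YFP-negative libraries, and this sum was higher in YFP-positive cells in 4 of 4 pairs. No member alone was, and all were low, at most at 4.32 CPM in any library. S100a8 was lower in YFP-positive cells in pairs 1 and 4, S100a9 in pair 1 and Csf3r in pair 2. Cxcr2 was at 0 in all YFP-negative libraries and at most at 0.56 CPM in YFP-positive ones. Epithelial markers summed to 152 CPM in YFP-positive replicate 4 and to 11.6 to 36.9 CPM elsewhere. Endothelial markers summed to 149.8 CPM in YFP-positive replicate 4, against 24.7 CPM in YFP-negative replicate 4. Their sum was higher in YFP-positive cells in 2 of 4 pairs. The part of all these markers in the differences between groups was not tested.

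The second comparison asked whether libraries of different number differed beyond the spread within numbers, with the group in the fit. Of the 7 genes not picked for such differences, Gclc, Gclm, Txnrd1, Srxn1 and Slc7a11 passed (adjusted p = 5.2e-08, 0.0292, 2.7e-07, 4.8e-06 and 4.3e-07, edgeR). Nqo1 and Osgin1 did not (adjusted p = 0.178 and 0.713, edgeR). The set of 10 was put together with earlier results of these data known, so these 7 were not a blind choice. Of all 15945 genes 39.3% passed, and of the 6587 genes with a mean of at least 20 CPM, which all but Nqo1 of the 10 reached, 66.2% did. Nqo1 lies below that level, and among those of the 7 that reached it only Osgin1 did not pass. Whether their share exceeds that of genes of like abundance was not tested. Gclm lost its call without number 2 or number 4 (adjusted p = 0.113 and 0.300, edgeR). The replicate number held 92.8% of the variance of Gclc on the log2 scale, 94.4% of Txnrd1, 96.2% of Slc7a11 and 24.7% of Osgin1. It held 89.4% for Nqo1, which did not pass. The median was 72.4% over all genes tested, of any abundance. For Mt1, Mt2 and Hmox1, which were chosen for such differences, the replicate number held 98.8%, 98.7% and 98.5%.

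Likeness between the 10 genes over the 8 libraries is described here by Pearson correlations of log2 CPM with no test, since the libraries share 4 numbers. Mt1 and Mt2 correlated at 0.997, Hmox1 and Gclc at 0.954, and Hmox1 and Mt1 at 0.886. Srxn1 and Slc7a11 correlated at 0.860 with each other and at 0.170 and -0.191 with Mt1, while Txnrd1 correlated at 0.765 with Srxn1 and 0.70 with Mt1. Nqo1 and Osgin1 correlated at -0.494 and 0.108 with Mt1 and at 0.171 and 0.353 with Slc7a11. Among genes with a mean of at least 5 CPM, the 5 most like Mt1 were Fth1, Mt2, Pnpla2, Prdx6 and Maml1, at 0.998 (Fth1) to 0.9896 (Maml1). Fth1, the ferritin heavy chain that stores iron, was at 1038, 2281, 1391 and 719 CPM in YFP-positive replicates 1 to 4, against 1075, 2569, 1535 and 899 CPM in YFP-negative ones, the same order of numbers as the metallothioneins. It was also second most like Mt2, at 0.995. Fth1 was picked for its likeness to Mt1, so its order of numbers and its likeness to Mt2 are no separate result. The 5 most like Hmox1 were Chmp4b, Supt6, Riok3, Map3k6 and Sipa1l2, with Chmp4b at 0.997. Those most like the mean of Txnrd1 and Srxn1 were Mat2a, Ccnl1, Nabp1, Cabyr and Mir17hg, at 0.991 to 0.984. These lists depended on the groups: with each group centred on its own mean, 4 of the 5 for Mt1, 3 for Mt2, 3 for Hmox1 and 2 for Txnrd1 and Srxn1 were shared.

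**Figure D5:**
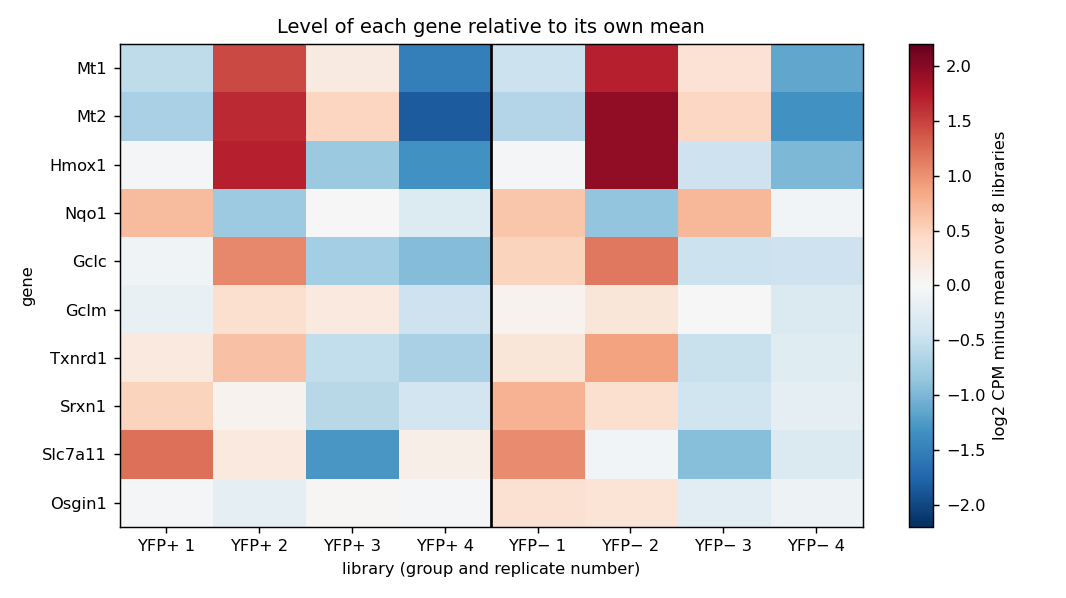
Log2 CPM of each gene minus its mean over the 8 libraries, with YFP-positive libraries 1 to 4 left of the black line and YFP-negative libraries 1 to 4 right of it. Mt1, Mt2, Hmox1, Gclc and Txnrd1 are highest in the libraries of number 2, Slc7a11 and Srxn1 in those of number 1, and Osgin1 varies little.

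Of 93 other genes in 7 lists, 91 were tested, and without the block 0 were called. With the block 3 were called lower and 0 higher, 3.3% of those tested. Of all genes 2.28% were called in either direction, so the share was near the background. Steap4, a metalloreductase for iron and copper, fell to 156 ± 67.6 CPM in YFP-positive cells, against 238 ± 74.4 CPM in YFP-negative cells (SD, n = 4 each; blocked log2 fold change -0.65 ± 0.0787, SE; adjusted p = 2.9e-04, edgeR), and passed in all 11 fits with the block. Cp, the copper-carrying ferroxidase ceruloplasmin, was at 749 ± 294 and 898 ± 229 CPM (blocked log2 fold change -0.31, adjusted p = 0.0436, edgeR). Slc39a14, a zinc and iron importer also known as ZIP14, was at 180.5 ± 59.0 and 223 ± 54.3 CPM (-0.33, adjusted p = 0.0266, edgeR). Cp and Slc39a14 each passed in 7 of the 11 blocked fits. Steap4 and Cp are 2 of 13 haem and iron genes, and Slc39a14 is 1 of 12 tested zinc genes, with 0 called higher in either list. Levels went both ways in these lists. Tfrc and Abcb10 were higher in YFP-positive cells in 4 of 4 pairs, and Hmox2, Blvrb, Fth1, Steap4 and Cp lower. Among the zinc genes Mt3, Slc30a5 and Slc39a10 were higher in 4 of 4 pairs and Slc39a14 lower. Of all genes 10.2% were lower in 4 of 4 pairs, and the share higher in 4 of 4 pairs was not counted. Slc39a10 had a blocked log2 fold change of 0.38 and did not pass (adjusted p = 0.172, edgeR).

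In the other 5 lists, 0 genes passed in edgeR with all libraries, the filter on low counts and TMM factors, with or without the block. Sqstm1 was lower and passed in 3 of the 11 blocked fits: with DESeq2, with limma voom and in edgeR without the count filter (adjusted p = 0.03695, 0.04174 and 0.007061). More list genes passed in some other blocked fits, 6 over all lists in edgeR without number 2. Which lists those beyond Steap4, Cp and Slc39a14 belong to is not given here. The other 5 lists held 10 regulators of NRF2, 19 glutathione enzymes, 16 thioredoxins and peroxiredoxins, 7 genes that remove superoxide and peroxide, and 14 genes of NADPH supply and detoxification. Their median log2 fold changes with the block were -0.13, -0.06, -0.02, -0.11 and 0.04, against 0.0048 for all genes. The most abundant of each over both groups were Sqstm1, an autophagy receptor that binds KEAP1 (571 ± 315.5 CPM in YFP-positive and 656 ± 312.5 CPM in YFP-negative cells), the extracellular glutathione peroxidase Gpx3 (1586 ± 593 and 1531 ± 550 CPM), and the thioredoxin inhibitor Txnip (1002 ± 813 and 971 ± 755 CPM). Selenop, a selenium transport protein, was at 1051 ± 582 and 1134 ± 559 CPM, and Ugdh, which makes UDP-glucuronate, at 88.0 ± 19.8 and 104 ± 18.6 CPM. In YFP-positive cells alone Akr1b8 and Abcc1, at means of 101 and 90.4 CPM, were above Ugdh. Between replicate numbers 58 of the 91 genes passed, 63.7%, against 39.3% of all genes and 66.2% of those at 20 CPM or more. Mt3, the third metallothionein, was at 1.62 to 10.6 CPM in YFP-positive and 1.47 to 6.91 CPM in YFP-negative libraries, and Mt4 was too low to test.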

How the data were processed

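Count tables of 8 libraries were analysed. Per the labels' protocols, sorted cells were lysed and libraries were made with a low-input stranded total RNA kit and sequenced on an Illumina NextSeq. The submitters' processing notes name STAR 2.7.3a, cutadapt 3.4, DESeq2, featureCounts 2.0.1 and GRCm38, and the sources used here give no settings, strand option or annotation release. Per the file headers, the deposited table holds unnormalised counts of every gene in each library. It also holds the authors' normalised values and means, a score in which counts were divided by size factors and rounded, the authors' fold ratio and log2 fold change, and the authors' p-value and adjusted p-value, per the file headers. The normalised values were not used; the log2 fold changes and adjusted p-values are quoted only as the authors' own.

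Counts were fitted in edgeR 4.0.16 (R 4.3.3): filterByExpr by group, TMM factors, a robust quasi-likelihood fit, two-sided tests and Benjamini-Hochberg adjustment over all genes tested, with calls at an adjusted p of 0.05 or below. The primary fit had group alone; the numbers were taken to pair the libraries from the correlation of same-numbered deviations (0.233, 0.487, 0.376 and 0.376), not from the labels. Differences between numbers were tested by dropping the number from group plus number. The fits were tried on counts simulated from a fit with group and number. Such counts presuppose the pairing and cannot judge it, and the outcome is not given here. Other settings were DESeq2 1.42.0, limma 3.58.1 voom with quality weights, RLE factors, library sizes alone, no filter beyond 1 count, a CPM of at least 2 in 4 libraries, and libraries left out. Log2 CPM used a prior count of 2. Chi-square tests found every pair of libraries within a group to differ beyond sampling noise (at least 55.9 per degree of freedom). Coordinates, exon lengths and overlaps came from GENCODE M21 for GRCm38, which held 53706 of the identifiers; promoters came from RefSeq (GRCm38.p6). Where a symbol stood on several identifiers, the one with the highest count was taken. The 10 genes, the lists and the rule for named genes were chosen with earlier results of these data known. The rule took all 10 genes, up to 2 called members per list and direction or else the most abundant, and the 5 genes most like Mt1, Mt2, Hmox1 and the glutathione and thioredoxin means; the genes most like the glutathione mean are not reported here.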

Additional observations from a re-analysis of the deposited data

How the results depend on the processing

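The counts of genes that passed depended on the block. Without it, 0 of the 10 genes, 0 of the list genes and, apart from 2 in DESeq2, 0 of all genes passed in any setting, single libraries left out included. With the replicate block 1 of the 10 genes, 3 list genes and 364 genes in all passed. Added after seeing the data, the block with DESeq2, limma voom, RLE factors, library sizes alone, no count filter and the CPM filter gave 2, 2, 1, 0, 1 and 1 of the 10, then 7, 9, 3, 3, 8 and 5 list genes, and 525, 613, 364, 365, 673 and 416 genes in all. With library sizes alone 41.9% of calls were lower, against 69.5% with TMM factors. Without both libraries of a number the blocked fit called 0 to 1 of the 10, 1 to 6 list genes and, without numbers 1 to 4, 194, 426, 157 and 167 genes in all. Gclc passed in 7 of 11 blocked fits. Differences between numbers passed for 4 to 5 of 7 genes; over all genes, 3299 to 5917 passed without a number, the lowest without number 2, against 6270 with all.

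No call turned in direction. Among values that had not passed, limma voom without the block turned Mt2 to 0.0243, Gclm to 0.0132 and Slc7a11 to -0.0330 on the log2 scale. Gclm was at 0.0800 with library sizes alone, and with the block at 0.0640 with library sizes alone and 0.0254 with limma voom. Leaving out single libraries moved unblocked log2 fold changes over these ranges: -0.98 to 0.60 for Mt1, -1.05 to 0.74 for Mt2, -1.22 to 0.82 for Hmox1, -0.89 to 0.11 for Gclc, -0.13 to 0.12 for Gclm, -0.49 to 0.13 for Txnrd1, -0.48 to 0.0012 for Srxn1 and -0.29 to 0.71 for Slc7a11. Other genes named moved from -0.61 to 0.17 for Sqstm1, -0.15 to 0.23 for Gpx3, -0.67 to 0.72 for Txnip, -0.46 to 0.19 for Selenop and -0.53 to 0.21 for Fth1. Nqo1, Osgin1, Steap4, Cp, Ugdh and Slc39a14 stayed below 0. With the block, only Gclm of these turned when a number was left out (lowest -0.10; 0.0547 without number 1 and 0.0176 without number 4). In edgeR with the count filter and TMM factors, the block changed the calls of Gclc, Steap4, Cp and Slc39a14 and of no other gene named; it also changed those of Mt1 and Sqstm1 with DESeq2, of Mt1, Sqstm1 and Fth1 with limma voom, and of Sqstm1 without the count filter. The cause of these changes was not tested. Depth limits Nqo1, which rested on 17 to 129 counts per library.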

Other observations

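Gsr, which recycles oxidised glutathione, was higher in YFP-positive cells in 4 of 4 pairs, at 51.6, 71.6, 45.2 and 39.1 CPM in YFP-positive replicates 1 to 4, against 41.4, 52.2, 37.9 and 28.3 CPM in YFP-negative ones. Its blocked adjusted p was 0.0559 (edgeR), so it did not pass. It was singled out after its values were seen, since its direction differs from that of Gclc. The share of all genes higher in YFP-positive cells in 4 of 4 pairs was not counted.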
